A study of Mus musculus with 10 samples.

Results

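The replicate series B of a nucleotide-conversion RNA-seq experiment in NIH-3T3 cells, an established line of mouse embryonic fibroblasts, was set against its replicate series A. The libraries were chosen by the replicate letter in their titles, and all 10 of the 10 libraries of the series entered, 5 with the letter B and 5 with the letter A. Each letter holds 1 library of each of 5 groups of wild-type cells: untreated cells, cells exposed to 800 µM uridine for 2 h, cells exposed as long to 800 µM 4-thiouridine (4sU) and sequenced without conversion, and the same 4sU treatment followed by SLAM or by TUC chemistry. 4sU is a modified nucleoside that enters RNA transcribed during the treatment. SLAM chemistry alkylates it with iodoacetamide and TUC chemistry converts it with osmium tetroxide and ammonium chloride, after which labelled positions are read as T-to-C mismatches. Nothing in the labels says whether the letters stand for separate cultures, days, extractions or library preparations, and what the letters share was not tested. P-values of B against A measure how steady that difference was over the groups, a spread that may be technical. They do not measure the spread between separate repeats of the experiment. If a letter is 1 culture or batch, the pairs repeat 1 contrast.

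Fibroblasts in culture adjust a few large programmes to their nutrient supply, density and growth state. One is the integrated stress response, in which the transcription factor ATF4 induces enzymes of serine, asparagine and one-carbon metabolism, amino acid transporters and tRNA synthetases when amino acids run short. Others are the cell cycle, ribosome production, and the secretion of extracellular matrix and of signals such as chemokines. The share of a gene's RNA that was made during labelling depends on how fast that RNA turns over, so short-lived regulators carry a high share and stable messages a low one.

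The libraries held between 27094222 and 33785682 counts, more in B than in A in each group. Levels are given as CPM, edgeR's counts per 1000000 counts of a library, after its total was adjusted by a TMM factor.

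The letters differed over most of the transcriptome. In a fit of all 10 libraries with a term for each group, which pairs the B and A library of a group, 7368 (60.3%) of 12218 genes differed at an adjusted p under 0.05 (edgeR quasi-likelihood test with Benjamini-Hochberg adjustment over all genes tested). Of these, 3790 genes (31%) were higher and 3578 (29.3%) lower in B. The differences were mostly small: 523 genes (4.28%) were higher and 146 (1.19%) lower by 1.5-fold or more. In 849 genes (6.95%) all 5 B libraries lay above all 5 A libraries, and in 915 (7.49%) all lay below. A chi-square statistic per degree of freedom of 38.4 to 78.2 set B apart from A within a group, the highest value being that of the SLAM pair. Between the uridine and untreated libraries of the same letter it was 3.37 in B and 4.44 in A. Without the group terms, and so without the pairing, 2069 genes passed (1048 higher, 1021 lower). That fit also leaves the differences between treatments and chemistries in the spread, so the fall is not due to the pairing alone. The shares in the paired fit are the background for the counts of genes called higher or lower in level that follow.

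The libraries carried the markers of fibroblasts. The summed level of 10 fibroblast markers was 20470 to 25410 CPM in B, against 17210 to 20340 CPM in A, and of these genes 5 were higher and 5 lower in B. Of 23 listed markers of epithelial, endothelial, macrophage, adipocyte and muscle cells, 15 were among the deposited genes. Epcam, Krt18, Krt19, Adgre1, Plin1, Pparg, Myod1 and Myog were not and could not be looked at. The summed level of the 15 was 13.9 to 20.6 CPM in B, against 17.2 to 26.7 CPM in A. Krt8, Cdh1, Pecam1, Kdr, Ptprc and Adipoq, among the markers that define such cells, had at most 5 counts in any library. The endothelial marker Cdh5 had 5 to 15 counts in B, against 13 to 31 in A. The muscle marker Des had 2 to 13 in B, against 2 to 7 in A. Other markers were above 0: the macrophage marker Cd68 had 218 to 310 counts in B, against 252 to 422 in A, the adipocyte marker Fabp4 169 to 227 in B, against 148 to 191 in A, Csf1r 32 to 54 in B, against 37 to 67 in A, and Acta1 28 to 67 in B, against 33 to 64 in A. Of the 6 such markers that could be tested, Cd68, Csf1r, Cdh5 and Acta1 were lower in B and Fabp4 and Des did not pass, and their part in the results below was not tested.

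Genes of the cell surface, the extracellular matrix and the nucleus led the higher side. Ly6c1 (ENSMUSG00000079018), a GPI-anchored surface protein of the Ly6 family, stood at 18.7, 16, 20, 18.5 and 19.2 CPM in B, against 4.4, 3.38, 4.36, 4.31 and 5.56 CPM in A, given here and below in the order untreated, uridine, 4sU, SLAM and TUC. Every B library lay far above every A library, and the log2 fold change of B over A was 2.08 ± 0.0687 (SE; adjusted p = 4.68e-12, edgeR). On this scale 1 unit is a 2-fold difference. Its relative Ly6a (ENSMUSG00000075602), the progenitor antigen Sca-1, stood at 105, 92.3, 109, 105 and 126 CPM in B, against 39.7, 41, 46, 48.1 and 54.3 CPM in A. The letters did not overlap there either, with a log2 fold change of 1.23 ± 0.0415. Prelp, a leucine-rich proteoglycan of the matrix, stood at 11, 11, 11.6, 16.1 and 12.8 CPM in B, against 2.73, 3.34, 3.74, 4.55 and 3.34 CPM in A. All 5 B libraries again lay above all 5 A libraries, at a log2 fold change of 1.82 ± 0.0726.

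Neat1 (ENSMUSG00000092274), the nuclear noncoding RNA around which paraspeckles assemble, stood at 1025, 831, 999, 676 and 937 CPM in B, against 378, 308, 266, 162 and 224 CPM in A. Both SLAM libraries were the lowest of their letter, yet the lowest B library lay above the highest A library (log2 fold change 1.78 ± 0.0807). Nr4a3, an orphan nuclear receptor induced as an immediate-early gene, stood at 52.2, 51.3, 51, 49.1 and 44.3 CPM in B, against 17.1, 17.4, 17.1, 12.6 and 13.2 CPM in A. Within a letter its libraries lay close together and the letters were far apart (1.68 ± 0.0551, adjusted p = 4.68e-12, edgeR). Wisp2, a secreted CCN-family protein (1.71), Sned1, a matrix glycoprotein (1.43), and Cemip, which takes part in hyaluronan breakdown (1.35), were also higher in B in every pair. So were the zinc-finger transcription factor Glis3 (1.30), the retinaldehyde reductase Dhrs3 (1.26), Leng8 (1.2) and the calcineurin-dependent transcription factor Nfatc1 (1.18). These 12 genes were taken by size from those that passed with the same sign in all 5 pairs and a mean of 10 CPM or more in the higher letter.

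The lower side was led by a neuropeptide, matrix and receptor genes, and by enzymes of amino acid metabolism. Vip (ENSMUSG00000019772), vasoactive intestinal peptide, stood at 3.64, 4.14, 3.98, 4.73 and 4.75 CPM in B, against 11.1, 10.4, 10.1, 13.5 and 13.3 CPM in A. No B library reached the lowest A library, and the log2 fold change was -1.46 ± 0.0678 (adjusted p = 1.5e-10, edgeR). Postn (ENSMUSG00000027750), the matricellular protein periostin, stood at 70.2, 72.1, 72.2, 82.1 and 67.4 CPM in B, against 164, 157, 182, 196 and 196 CPM in A. Its B libraries were all below its A libraries, at a log2 fold change of -1.29 ± 0.0477. Pappa2, a protease of IGF-binding proteins (-1.20), Agtr2, an angiotensin II receptor (-1.14), P2rx3, an ATP-gated channel (-1.07), Cacna1g, a T-type calcium channel (-0.87), Ptn, the growth factor pleiotrophin (-0.83), and Tmem171 (-1.16) were lower in B in every pair. The other 4 of the 12 were Cth, Pck2, Trib3 and Psph. By gene bounds in the RefSeq names table, 90 of 225 genes looked up (those the naming rule took, the ATF4 list and a few others) overlap another entry, 35 of them a protein-coding one. Among these are Psph (with Cct6a), Dhrs3 (Vps13d), P2rx3 (Prg3), Shmt2 (Ndufa4l2), Slc6a9 (Ccdc24), Ddit3 (Mbd6 and Mars1), Timp3, Tpi1, Syvn1, Hspa5, Tk1, Rfc4, Nusap1, Aurka, Gas2, Rpl35, Nhp2, Nr4a2, Meg3, Aars and Wars. Their values are uncertain, since the labels do not say to which gene a shared read was counted.

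**Figure D1:**
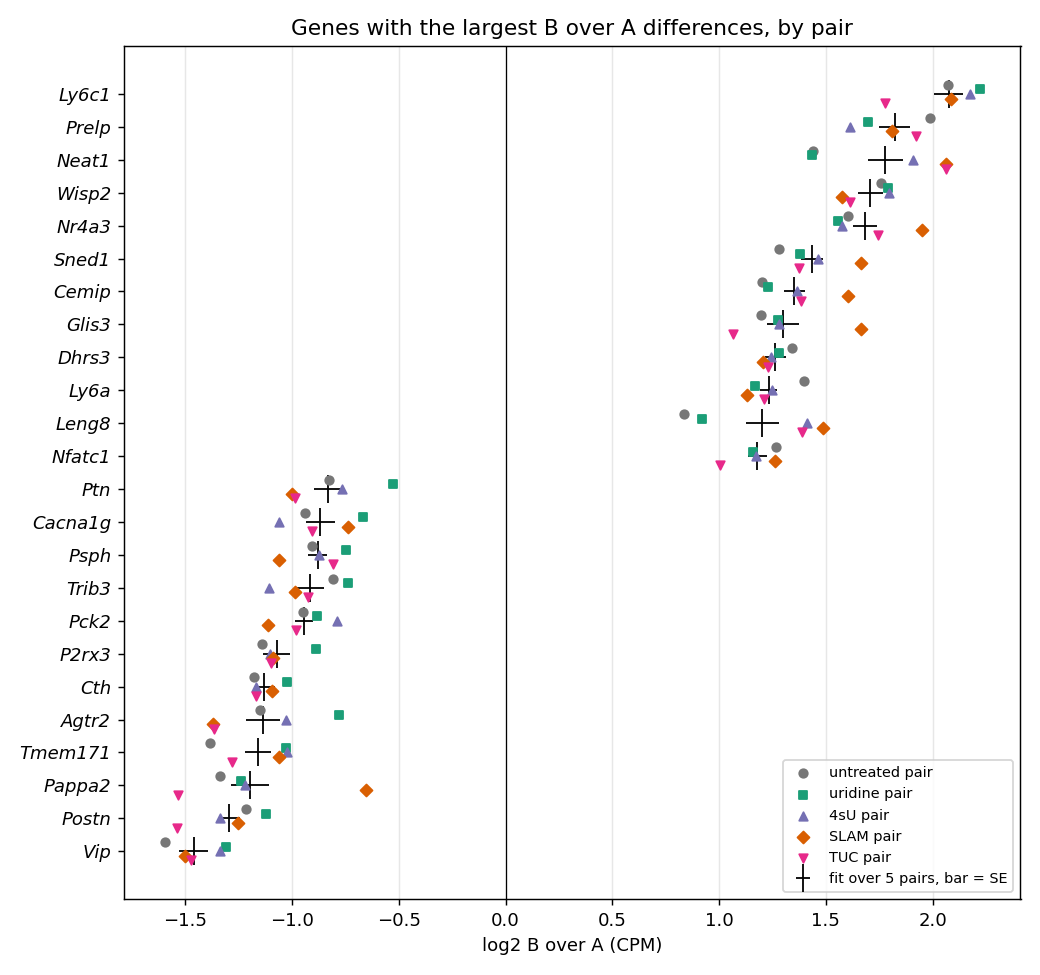
Log2 of B over A (x axis) for the 12 highest and 12 lowest genes under the naming rule, 1 row per gene. Coloured points are the 5 pairs and the black tick with its bar is the fit over all pairs with its SE; every point of the upper 12 genes lies above 0 and every point of the lower 12 below 0, from Ly6c1 (2.08) to Vip (-1.46).

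The ATF4 programme was lower in B almost throughout. Of 31 members of the integrated stress response list that were tested (32 listed, Gdf15 being too low), 28 fell, 0 rose and 3 did not pass, against 29.3% of all genes lower. The median log2 fold change was -0.46, against 0.01 over all genes tested, and 9 members were lower by 1.5-fold or more. The list's median was -0.46 in the untreated pair, -0.39 with uridine, -0.42 with 4sU, -0.51 with SLAM and -0.49 with TUC. The 3 that did not pass were Ddit3, the stress factor CHOP (-0.08 ± 0.0444, adjusted p = 0.133, edgeR), the mTORC1 regulator Sesn2 (-0.08 ± 0.0464, adjusted p = 0.153) and the cationic amino acid transporter Slc7a1 (0.03 ± 0.0413, adjusted p = 0.584).

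Atf4 itself (ENSMUSG00000042406), the factor that gives the programme its name, stood at 412, 443, 414, 469.6 and 474 CPM in B, against 540.1, 579, 553, 638 and 605 CPM in A. The highest B library was below the lowest A library, and the log2 fold change was -0.40 ± 0.0322 (adjusted p = 5.49e-08, edgeR). Asns, which makes asparagine, stood at 187, 194, 203, 208 and 217 CPM in B, against 294, 302, 329.8, 343 and 355 CPM in A. Its letters were apart as well, at -0.68 ± 0.032 (adjusted p = 1.57e-10). The serine pathway fell at each of its steps. Phgdh, the first enzyme, stood at 358, 364, 401, 452 and 440.2 CPM in B, against 509, 507, 570.0, 765 and 637 CPM in A (-0.56 ± 0.0405). Psat1, the second, stood at 723, 789, 767, 686 and 802 CPM in B, against 1091, 1114, 1145, 1184 and 1278 CPM in A (-0.63 ± 0.0404). The last, Psph, stood at 36.7, 42.3, 41.1, 40.6 and 50.1 CPM in B, against 68.8, 71.1, 75.5, 84.8 and 87.8 CPM in A (-0.88 ± 0.0444, adjusted p = 3.63e-10). In none of the serine genes did a B library reach an A library.

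One-carbon enzymes of the mitochondrion moved the same way. Shmt2, which takes a carbon unit from serine, stood at 304, 314, 344, 393 and 374 CPM in B, against 456, 456, 500.2, 599 and 540.5 CPM in A (-0.56 ± 0.0321), and Mthfd2, the next enzyme, at 112, 116, 113, 111 and 125 CPM in B, against 172, 175, 177, 184 and 188 CPM in A (-0.64 ± 0.0338). Both genes had B libraries entirely below A libraries. Cth, which makes cysteine from cystathionine, stood at 10.1, 12, 10.6, 11.6 and 10.6 CPM in B, against 23, 24.4, 23.9, 24.8 and 24 CPM in A (-1.13 ± 0.0495, adjusted p = 8.46e-11, edgeR). Its highest B library was below its lowest A library. Trib3, a pseudokinase that feeds back on ATF4, stood at 8.35, 8.78, 7.08, 8.02 and 7.77 CPM in B, against 14.7, 14.7, 15.3, 16 and 14.8 CPM in A (-0.91 ± 0.0622), and Chac1, which degrades glutathione, at 20.9, 20.5, 18.2, 18.1 and 19.2 CPM in B, against 33.7, 32.1, 26.7, 32.4 and 29.3 CPM in A (-0.67 ± 0.0485). Neither showed an overlap of letters. All 9 tRNA synthetases of the list fell, between Wars (-0.17) and Mars (-0.53), with the seryl enzyme Sars at -0.48 ± 0.0319. Of the amino acid transporters, Slc7a5 (-0.49), Slc3a2 (-0.31) and the cystine carrier Slc7a11 (-0.45) fell and Slc7a1 did not pass. Slc7a11 stood at 10.7, 13.3, 8.2, 5.2 and 5.99 CPM in B, against 17.5, 16.3, 9.83, 7.04 and 8.78 CPM in A, so its letters overlapped across groups while each pair was lower in B. Outside the list, and named after their values were seen, Pck2, mitochondrial PEP carboxykinase (-0.94 ± 0.0421), Gpt2, an alanine transaminase (-0.77 ± 0.0398), Slc6a9, a glycine transporter (-0.66 ± 0.036), and Ass1, argininosuccinate synthase (-0.78 ± 0.0616), were lower too.

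**Figure D2:**
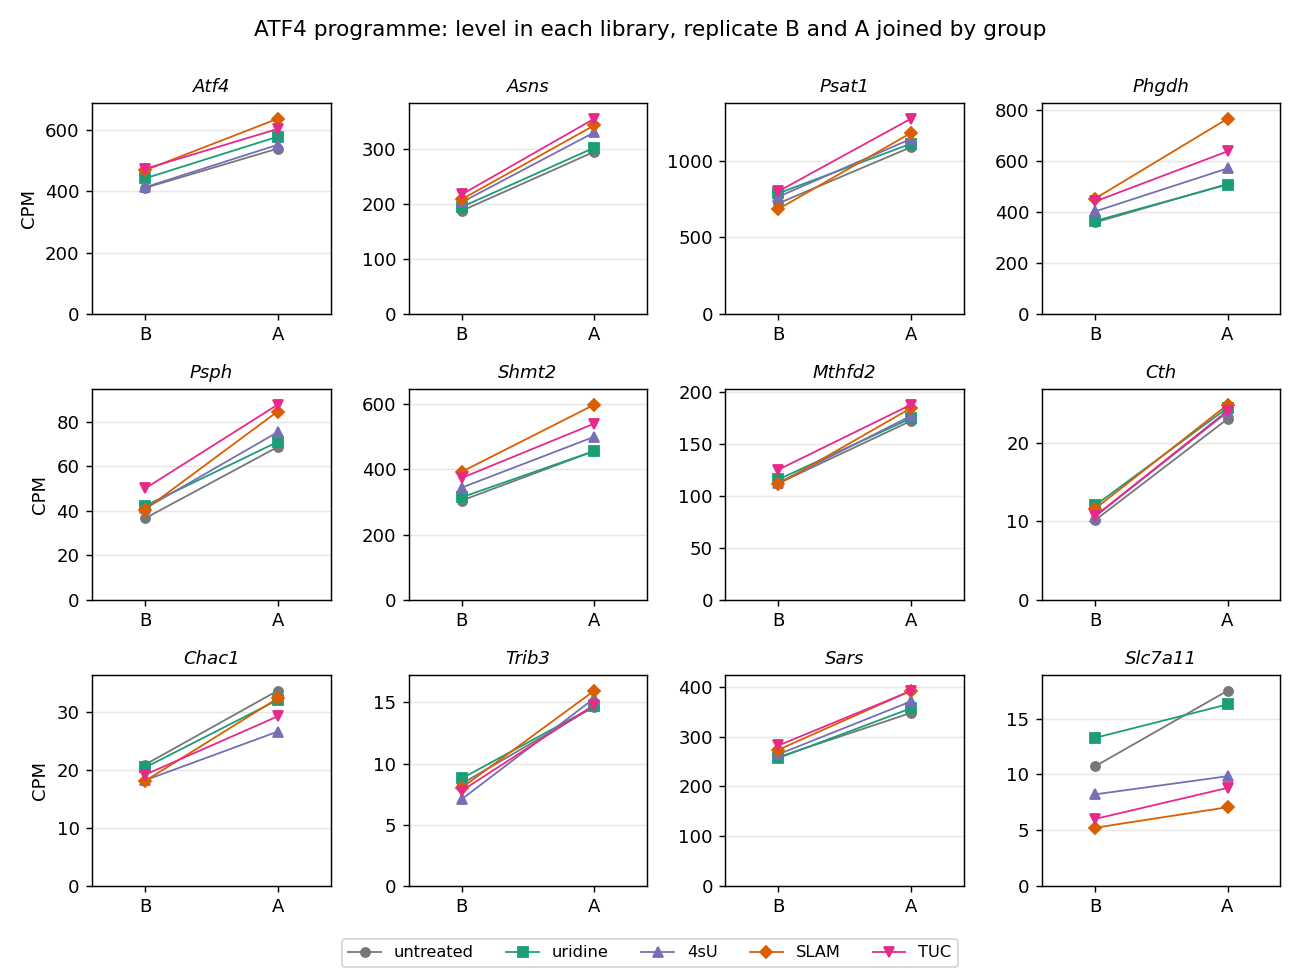
CPM (y axis, from 0) of Atf4 and 11 members of its list in all 10 libraries, with B left of A and the 2 libraries of a group joined by a line. Lines run upward from B to A in each panel, as for Asns at 187 CPM in B against 294 CPM in A among untreated cells; Slc7a11 is the panel in which B of untreated and uridine cells lies above A of other groups.

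Promoters of these genes are shown because the members moved together and the element that ATF4 binds with C/EBP partners has a known core. The RefSeq promoter table (GRCm38.p6) held 25 of the 32 list members, and the 250 bases before each start were searched on both strands for TGATGNAA, which reads TTNCATCA on the other strand. A match was found in 9 of these 25 genes (36%), against 3.91% of 27025 genes with a promoter in the table. The list was chosen as targets of ATF4, so this share describes it and tests nothing, a match is not a binding site, and a missing one says only that these letters are absent from the window. The capitals below mark the match, each sequence running 5′ to 3′ on the gene's strand. Pck2, one of the 12 lowest genes, is not on the list and is printed beside its members.
Asns (chr6:7693210-7693459, minus strand): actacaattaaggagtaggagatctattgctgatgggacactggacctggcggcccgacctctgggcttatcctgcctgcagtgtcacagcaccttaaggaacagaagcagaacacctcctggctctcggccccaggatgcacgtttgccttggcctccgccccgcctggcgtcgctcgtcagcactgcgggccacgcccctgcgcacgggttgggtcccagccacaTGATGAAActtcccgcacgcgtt
Chac1 (chr2:119350992-119351241, plus strand): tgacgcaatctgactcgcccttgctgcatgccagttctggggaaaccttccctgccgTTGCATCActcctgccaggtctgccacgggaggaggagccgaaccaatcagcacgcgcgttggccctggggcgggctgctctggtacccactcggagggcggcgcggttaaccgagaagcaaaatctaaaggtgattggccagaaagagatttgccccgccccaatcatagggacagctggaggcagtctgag
Aars (chr8:111033592-111033841, plus strand): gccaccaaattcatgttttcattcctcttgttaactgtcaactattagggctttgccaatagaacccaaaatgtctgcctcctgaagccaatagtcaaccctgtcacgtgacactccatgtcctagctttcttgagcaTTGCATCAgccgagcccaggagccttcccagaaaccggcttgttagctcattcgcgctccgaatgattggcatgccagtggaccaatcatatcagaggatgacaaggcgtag
Nupr1 (chr7:126625471-126625720, minus strand): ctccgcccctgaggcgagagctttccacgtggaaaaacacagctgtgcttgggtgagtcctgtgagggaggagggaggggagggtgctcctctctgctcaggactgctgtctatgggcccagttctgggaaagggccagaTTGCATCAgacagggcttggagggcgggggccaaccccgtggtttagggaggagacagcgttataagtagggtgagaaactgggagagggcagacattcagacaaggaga
Pck2 (chr14:55540016-55540265, plus strand): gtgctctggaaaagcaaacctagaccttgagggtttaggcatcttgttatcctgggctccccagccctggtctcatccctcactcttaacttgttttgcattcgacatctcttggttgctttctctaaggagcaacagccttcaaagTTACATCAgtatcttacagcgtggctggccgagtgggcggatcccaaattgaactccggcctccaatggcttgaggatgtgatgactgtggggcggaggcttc
The match ended 15 bases before the annotated start in Asns and lay on its coding strand. In Pck2 (95 bases), Nupr1 (102), Aars (104) and Chac1 (185) it lay on the other strand. Log2 fold changes of these genes were -0.68 for Asns, -0.94 for Pck2, -0.51 for the stress-induced chromatin protein Nupr1, -0.37 for the alanyl-tRNA synthetase Aars and -0.67 for Chac1. Only promoters with a match are printed. Atf4, Trib3, Phgdh, Psat1, Psph, Shmt2 and Mthfd2, all lower in B, had no match in the window. Neither had Ddit3, Sesn2 and Slc7a1, which did not pass. Whether a match went with a larger fall was not tested.

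Targets of NRF2, the oxidative stress factor, were lower as well: 18 of 24 fell, 3 rose and 3 did not pass, with a median of -0.27. Slc7a11 and Sqstm1 are shared with other lists. Hmox1, haem oxygenase 1, stood at 142, 147, 146, 155 and 148 CPM in B, against 222, 229, 269.9, 311 and 259 CPM in A. The letters were well apart (-0.79 ± 0.0469, adjusted p = 2.08e-09, edgeR). Txn1, thioredoxin (-0.53 ± 0.0338), and Pgd of the pentose phosphate pathway (-0.46 ± 0.0325) fell in all pairs, whereas the glutathione transferases Gstm1 (0.29) and Gstm2 (0.17) and the glutamate-cysteine ligase Gclc (0.19) rose. Nfe2l2, which encodes NRF2 itself, was higher in B, at 150.3, 159, 182, 191 and 178 CPM in B, against 135, 139.7, 158, 158 and 168 CPM in A (0.18 ± 0.0345). With the length trend described below taken out, 16 targets were lower and 4 higher, and the median was -0.13.

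Of 19 chaperones and folding factors of the endoplasmic reticulum, 5 rose, 6 fell and 8 did not pass (median -0.05), shares near those of all genes. With the length trend described below taken out, 2 rose and 3 fell. Hspa5, the chaperone BiP, fell by 0.18 on the log2 scale and the ubiquitin ligase Syvn1 rose (0.37). Heat shock genes had 11 lower, 2 higher and 6 not passing of 19 (median -0.19), with Hsp90ab1 (-0.36) and the co-chaperone Stip1 (-0.37) on the lower side. In the glycolysis and hypoxia list 14 fell, 7 rose and 10 did not pass. Gapdh (-0.41), Ldha (-0.39) and Tpi1 (-0.37) were lower, while Eno2, the neuronal enolase isoform, was higher at 74.5, 66.1, 87.8, 88.8 and 87.1 CPM in B, against 42.6, 39.8, 45.5, 42.2 and 46.6 CPM in A (0.89 ± 0.0462). Cholesterol synthesis genes had 17 lower, 3 higher and 11 not passing of 31, among them Pmvk (-0.48) and Mvd (-0.39).

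Ribosomal protein genes were lower in B without exception, 66 of 66 tested, with a median log2 fold change of -0.33. Their summed level was 49170 to 66690 CPM in B, against 59490 to 83120 CPM in A. Rpl35, of the large subunit, stood at 576, 600.1, 656, 654 and 726 CPM in B, against 777, 854, 924, 884 and 1039 CPM in A (-0.48 ± 0.033), with no overlap of letters. Rps2, of the small subunit, stood at 1227, 1315, 1570, 1542 and 1864 CPM in B, against 1657, 1802, 2121, 2582 and 2592 CPM in A (-0.51 ± 0.0443). Its B and A libraries overlapped across groups although each pair was lower in B. Processed copies of many ribosomal protein genes can share their reads, which leaves single counts uncertain. Among nuclear genes of oxidative phosphorylation there were 64 lower, 0 higher and 5 not passing of 69 (median -0.22), and ribosome biogenesis genes had 24 lower, 2 higher and 9 not passing of 35 (median -0.16), including the nucleolar proteins Nhp2 (-0.52 ± 0.037), Fbl (-0.44 ± 0.0318) and Npm1 (-0.40 ± 0.0362).

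Gene length moved with the letter and bears on these lists. With the genes cut into 10 bins of equal size by deposited length, in the shortest bin 57.4% were lower and 7.29% higher in B, with a median log2 fold change of -0.21. In the longest bin 73.3% were higher and 4.66% lower, with a median of 0.28. The Spearman correlation across 12218 genes between log2 length and B over A was 0.465 in the fit, and 0.336 to 0.526 within single pairs, the SLAM pair having the highest value. The genes of a library share its depth and preparation, so this is a description. The length at the middle of the reads, weighting each gene by its counts, was 3527, 3527, 3376, 3226 and 3158 bases in B, against 3289, 3250, 3158, 2926 and 2959 bases in A, longer in B in each group.

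**Figure D3:**
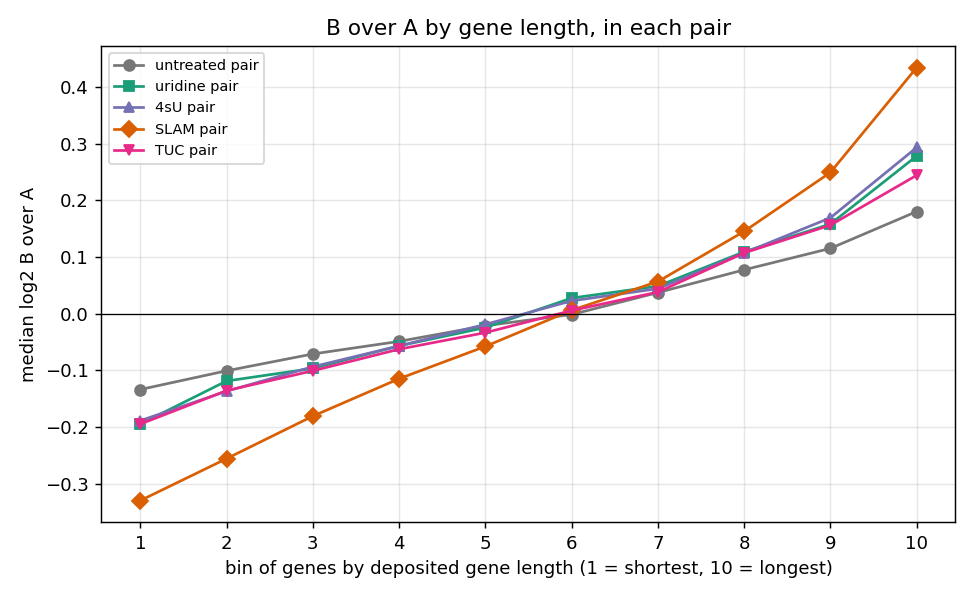
Median log2 of B over A (y axis) in 10 bins of the 12218 genes by deposited gene length (x axis, bin 1 the shortest), 1 line per pair. All 5 lines climb from below 0 in bin 1 to above 0 in bin 10; the SLAM pair runs from -0.33 to 0.43 and the untreated pair from -0.13 to 0.18.

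A fit with the length trend of each pair taken out was added after seeing the data. It called 6496 genes, 3127 higher (25.6%) and 3369 lower (27.6%). Ribosomal protein genes then had 50 lower, 0 higher and a median of -0.16, and oxidative phosphorylation genes 27 lower, 5 higher and a median of -0.04. The median length was 1100 bases for the ribosomal protein genes and 983 bases for oxidative phosphorylation, against 3307 bases over all genes tested. The ATF4 list, with a median length of 2636 bases, had 28 lower, 1 higher (Ddit3, 0.13) and a median of -0.47 in that fit. Ly6c1 stood at 2.29 and Vip at -1.39. Among long genes of the leading sets, Neat1 (20771 bases) came down to 1.23 and Sned1 (9147 bases) to 1.13, while Pappa2 (9518 bases) moved further from 0, to -1.51. Atf4 itself came to -0.26 and Slc7a11 to -0.75, and Slc7a1 then passed as lower (-0.20). Other values given above that moved by more than 1.5 times were those of Txn1 (-0.33), Gstm1 (0.47), Gstm2 (0.37), Tpi1 (-0.22), Ldha (-0.26), Pmvk (-0.29), Rpl35 (-0.27), Rps2 (-0.31), Nhp2 (-0.32), Npm1 (-0.25) and Cd68 (-0.36), and Acta1 no longer passed. Among genes given below, Rfc4 came to -0.20, Foxo3 to 0.29, Rora to 0.51, Bambi to -0.37 and Myc to -0.11, and Cdkn1a passed as higher (0.15).

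Cell cycle genes were lower in B. In the G1/S and DNA replication list 32 of 40 fell, 0 rose and 8 did not pass (median -0.19), and in the G2 and mitosis list 28 of 40 fell, 1 rose and 11 did not pass (median -0.24). With the length trend taken out the counts were 33 lower and 0 higher in both, and the medians -0.19 and -0.27. Nusap1, a spindle protein, stood at 32.2, 32, 30.5, 33.4 and 31 CPM in B, against 47, 46.1, 45.3, 51.1 and 48.6 CPM in A (-0.58 ± 0.0397, adjusted p = 1.08e-08, edgeR). The letters were apart and each letter was nearly flat over the groups. Ube2c, a ubiquitin carrier of the anaphase-promoting complex, stood at 99.9, 105, 103, 114 and 117 CPM in B, against 137, 141, 149, 189 and 168 CPM in A (-0.53 ± 0.0413), and thymidine kinase Tk1 at 73, 76.7, 81, 87.4 and 95.7 CPM in B, against 99.7, 103, 99.4, 138 and 124 CPM in A (-0.44 ± 0.0448). Neither overlapped. Aurka (-0.52), Bub1b (-0.51), Mcm5 (-0.36) and Rfc4 (-0.38) fell too. The kinesin Kif20b was the member that rose (0.26), and with the length trend taken out it no longer passed (0.11).

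Inhibitors and quiescence genes had 11 higher, 2 lower and 9 not passing of 22 (median 0.10). With the length trend taken out 9 were higher and 4 lower (median 0.08). Ccng2, an unconventional cyclin of arrested cells (0.62 ± 0.0601), the Krüppel-like factor Klf9 (0.61 ± 0.0479), Foxo3 (0.51 ± 0.0524) and Txnip, an inhibitor of thioredoxin (0.48 ± 0.0503), were higher, and Gas2 (-0.46 ± 0.0387) was lower. Klf9 stood at 126, 127, 129, 119 and 95.9 CPM in B, against 88.6, 87.1, 90.9, 64.5 and 63.3 CPM in A. Its SLAM pair was farther apart than the other pairs. Among p53 targets 7 rose, 6 fell and 12 did not pass of 25 (median -0.01). Cdkn1a, which encodes p21, was near equal between letters in every group, at 89.3, 89.9, 245, 231 and 246 CPM in B, against 85.6, 84.9, 244, 234 and 240.1 CPM in A (0.03 ± 0.0322, adjusted p = 0.41, edgeR), although it was high in all 6 libraries of 4sU-treated cells. Trp53inp1 was the member with the largest difference, at 10.4, 10.1, 29, 14.4 and 24.6 CPM in B, against 5.23, 4.54, 14.3, 7.79 and 13 CPM in A (0.98 ± 0.0564), and Mdm2 was higher (0.24 ± 0.0469). Clock genes had 8 higher, 0 lower and 9 not passing of 17, among them Per1 at 71.7, 72.3, 87.3, 95.4 and 78.2 CPM in B, against 49.5, 46.6, 59.7, 55.2 and 50.6 CPM in A (0.63 ± 0.0418), Nfil3 (0.45) and Rora (0.85). The clock list's median was 0.09 and became 0.03 with the length trend taken out, with 6 higher and 2 lower.

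Secreted signals and their receptors were mostly higher in B. In the list of growth factors and receptors 17 rose, 6 fell and 6 did not pass of 29 (median 0.24). Fgfr1, a fibroblast growth factor receptor, stood at 637, 605, 607, 693 and 561 CPM in B, against 363, 345, 337, 389 and 312 CPM in A. The lowest B library was far above the highest A library (0.83 ± 0.0317, adjusted p = 1.34e-11, edgeR). Pdgfrb, a platelet-derived growth factor receptor (0.74 ± 0.0364), and Igfbp4, which binds insulin-like growth factors (0.86 ± 0.0506), were higher, whereas Igf2 was lower, at 198, 204, 229.9, 238 and 204 CPM in B, against 316, 318, 353, 353 and 340.0 CPM in A (-0.65 ± 0.034). TGF-beta and BMP targets had 12 higher, 1 lower and 4 not passing of 17 (median 0.25). The latent TGF-beta binding protein Ltbp2 stood at 207, 196, 209.5, 213 and 176 CPM in B, against 115, 103, 109, 109.8 and 97.9 CPM in A (0.91 ± 0.0334), its letters apart by a wide gap. Tgfb1 (0.36), Id4 (0.37) and Smad6 (0.37) were higher and the pseudoreceptor Bambi was lower (-0.24).

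NF-kB targets and chemokines had 14 higher, 3 lower and 6 not passing of 23 (median 0.20). Ccl2, a monocyte chemokine, stood at 152, 151, 166, 168 and 203 CPM in B, against 111, 117, 117, 135 and 147 CPM in A (0.42 ± 0.0357). Its letters did not overlap. Nfkbiz, an inducible nuclear IkB protein (0.78 ± 0.067), and Tnfaip3, the feedback inhibitor A20 (0.62 ± 0.0721), were higher, and the chemokine Cxcl12 was lower (-0.41 ± 0.0536). Complement and Ly6 genes had 6 higher, 3 lower and 1 not passing of 10, 5 of them higher by 1.5-fold or more. Complement C3 stood at 2.89, 1.98, 2.32, 2.47 and 2.2 CPM in B, against 0.654, 0.763, 1.04, 0.649 and 0.882 CPM in A (1.59 ± 0.159), and C4b at 2.22, 2.28, 2.35, 2.61 and 2.1 CPM in B, against 0.624, 0.799, 1.04, 0.786 and 0.767 CPM in A (1.53 ± 0.143). Both were low, with a few CPM, and did not overlap. The regulators Cd55 (-0.28) and Cd59a (-0.58) were lower. In bulk libraries a change in the share of cells that carry a transcript and a change in the amount per cell cannot be told apart. Interferon response genes had 4 higher, 4 lower and 10 not passing of 18.

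Extracellular matrix genes differed in both directions, with 18 higher, 13 lower and 5 not passing of 36 (median 0.12). With the length trend taken out 14 were higher and 16 lower (median -0.01). Thbs2, the matricellular thrombospondin, stood at 1869, 1686, 1648, 1624 and 1417 CPM in B, against 931, 903, 914, 881 and 852 CPM in A (0.87 ± 0.0393), with every B library above every A library. Fibronectin, Fn1, stood at 10667, 10203, 10703, 10603 and 7919 CPM in B, against 7608, 6557, 7219, 6088 and 5537 CPM in A (0.60 ± 0.0455). Timp3, an inhibitor of matrix proteases (0.65 ± 0.0391), and Col12a1 (0.81 ± 0.0574) were higher. The small proteoglycans Dcn, at 144, 147, 154, 165 and 166 CPM in B, against 179, 190.4, 226, 252 and 240.3 CPM in A (-0.48 ± 0.0419), and Lum (-0.93 ± 0.0837) were lower, as was Col3a1 (-0.42 ± 0.034). Col1a1 was higher (0.40 ± 0.0414). With the length trend taken out the values became 0.44 for Col12a1, 0.33 for Fn1 and 0.22 for Col1a1. Actin and SRF targets had 11 higher, 6 lower and 7 not passing of 24, YAP and TAZ targets 5, 4 and 7 of 16, and immediate-early genes 11, 10 and 7 of 28. Within the last list Nr4a3 and Nr4a2, at 57.9, 57.5, 63.7, 70.1 and 60.9 CPM in B, against 35.3, 34.4, 38.4, 39 and 35.8 CPM in A (0.76 ± 0.0387), were higher and Dusp5 (-0.53 ± 0.0427) lower, and Fos (-0.23 ± 0.0989, adjusted p = 0.0545) did not pass.

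Nuclear noncoding RNAs had 7 higher, 1 lower and 2 not passing of 10 (median 0.36). Meg3, an imprinted noncoding RNA, stood at 211, 205, 242, 198 and 169.9 CPM in B, against 139.5, 118, 118, 80.8 and 89.2 CPM in A (0.93 ± 0.0664). With the length trend taken out this became 0.48. Malat1, of nuclear speckles, stood at 939, 814, 1122, 361 and 799 CPM in B, against 512, 309, 477, 173 and 792 CPM in A (0.92 ± 0.127). Its TUC pair was nearly equal while the other pairs were apart. H19, also imprinted, was lower, at 2.22, 2.42, 2.59, 2.56 and 2.68 CPM in B, against 4.49, 4.65, 5.47, 4.72 and 6.13 CPM in A (-1.02 ± 0.0882). Zinc-finger genes of the KRAB family had 62 higher, 3 lower and 48 not passing of 113 (median 0.19, and 0.14 with the length trend taken out), such as Zfp949 (0.83 ± 0.074) and Zfp760 (0.67 ± 0.0679). Lysosome and autophagy genes had 17 higher, 8 lower and 4 not passing of 29, and replication-dependent histones 1 higher, 4 lower and 6 not passing of 11. The reference gene Actb did not pass (-0.08 ± 0.041, adjusted p = 0.114, edgeR) and Myc was lower (-0.20 ± 0.0407).

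**Figure D4:**
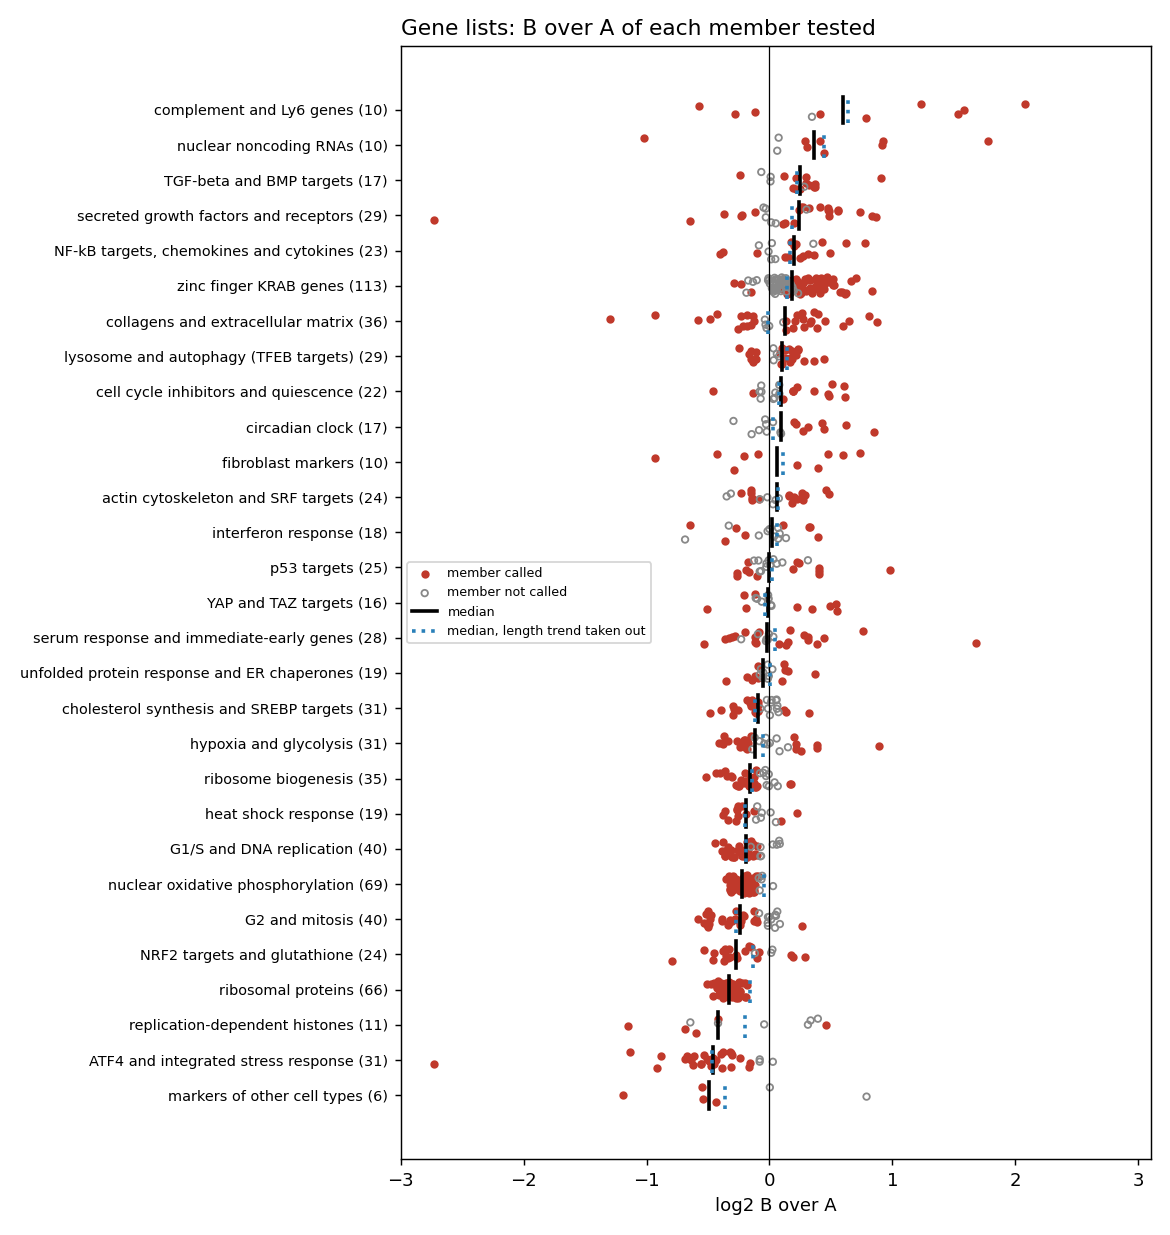
Log2 of B over A (x axis) of each tested member of the 29 gene lists, ordered by median, with the number tested after each name. Filled points passed an adjusted p of 0.05, open points did not, the black bar is the median and the dotted bar the median with the length trend taken out; the ATF4 list has a median of -0.46 and the ribosomal proteins -0.33, and the lowest point is Fgf21, which was under 1 CPM in every library, at -2.73.

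Whether the difference between letters itself differed between kinds of libraries was tested with interaction terms in the same data (edgeR quasi-likelihood, 12218 genes). Between converted pairs (SLAM and TUC) and the other 3 pairs, 1 gene passed (0.00818%), with 1228 at an unadjusted p under 0.05. It was Dhx9, an RNA helicase, at 258, 262, 145, 111 and 106 CPM in B, against 328, 322, 152, 82.2 and 84.9 CPM in A. B was above A in the converted pairs (log2 0.38) and below it in the rest (-0.24), a difference of 0.62 ± 0.0823 (adjusted p = 0.0441). With genes of a mean of 100 counts or more, or without the untreated or the uridine pair, 0 genes passed. Without the TUC pair, which leaves SLAM alone against the unconverted pairs, 818 passed (542 higher, 276 lower). Without the SLAM pair 7 passed, and without the 4sU pair 2. Between 4sU-treated pairs (4sU, SLAM and TUC) and the other 2 pairs, 2 genes passed (0.0164%), with 1026 at an unadjusted p under 0.05. They were Neat1 (B over A 2.01 in 4sU-treated pairs and 1.44 in the rest, a difference of 0.58 ± 0.0685) and Leng8 (1.43 and 0.88, a difference of 0.55 ± 0.0677; adjusted p = 0.0055 for both). Leng8 stood at 153, 144, 156, 148 and 126 CPM in B, against 85.5, 75.9, 58.5, 52.8 and 48.2 CPM in A. Without the untreated pair, or without the uridine pair, 0 genes passed.

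The share of new RNA was higher in B in both chemistries. The deposited value, called MAP in its header, is a posterior mode between 0 and 1 and is read here as the newly made part of a gene's RNA. Over 9956 genes with 100 reads or more in each converted library, the median MAP of the SLAM libraries was 0.609 in B and 0.520 in A, and that of the TUC libraries was 0.627 in B and 0.541 in A. The medians differed by 0.0888 in SLAM and 0.0862 in TUC, with 1 library for each letter and so no test. The median of the differences gene by gene was smaller, at 0.0495 in SLAM and 0.0476 in TUC. B was the higher of the pair in 85.3% of genes in SLAM and 85.5% in TUC, and in both chemistries in 7803 genes (78.4%), against 697 (7%) lower in both. The B minus A differences of the chemistries correlated across these genes at r = 0.665, as a description of 4 libraries. In libraries without conversion the median MAP was lower in B, at 0.0100 in B and 0.0142 in A with uridine, and 0.0177 in B and 0.0194 in A with unconverted 4sU.

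**Figure D5:**
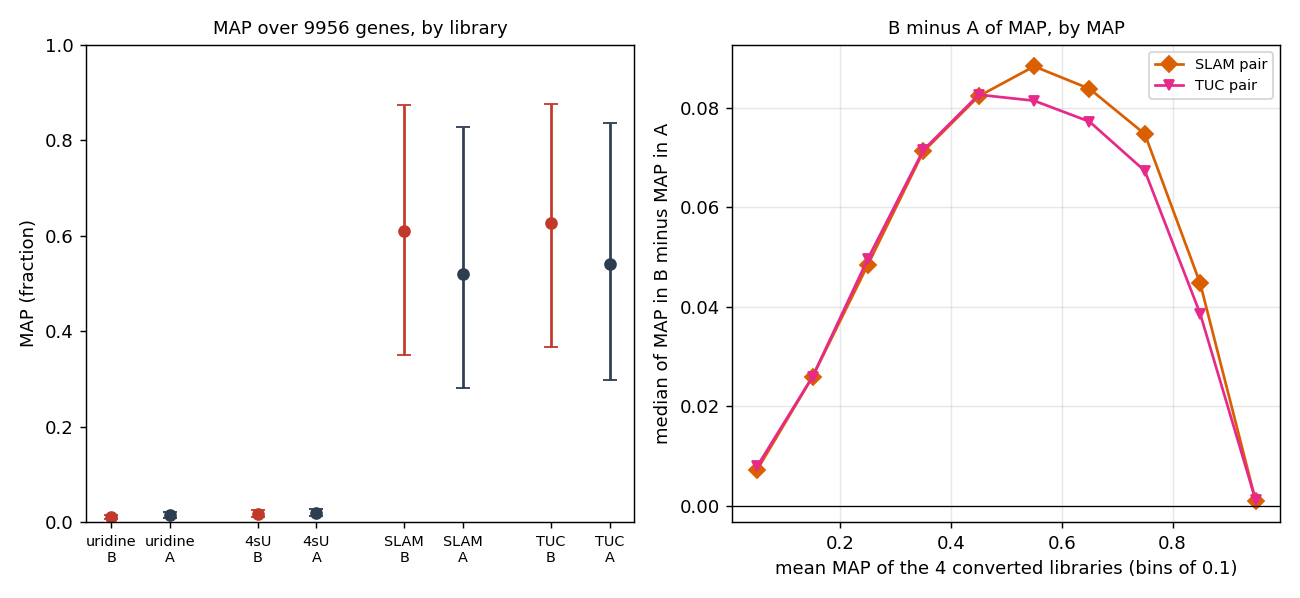
Left, the median MAP (y axis, a fraction) over 9956 genes in the 8 libraries that carry the value, B left of A, with bars from the lower to the upper quartile. Right, the median of MAP in B minus MAP in A (y axis) in bins of 0.1 of the mean MAP of the converted libraries (x axis); the difference is 0.0073 in SLAM and 0.0080 in TUC in the lowest bin, 0.0883 and 0.0814 between 0.5 and 0.6, and 0.0011 and 0.0012 in the highest.

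By gene, 4342 genes (43.6%) had deposited 0.05 to 0.95 bounds in B entirely above those in A in both chemistries, and 19 (0.191%) entirely below. In a limma fit of the logit of MAP with a term for the chemistry, 3237 genes (32.5%) were higher and 144 (1.45%) lower in B at an adjusted p under 0.05. That fit has 1 residual degree of freedom and 1.97 borrowed across genes, and the smallest adjusted p was 0.0308. With each library's median logit taken off, 0 genes passed (limma, smallest adjusted p = 0.086, 2069 at an unadjusted p under 0.05), so no gene was called as differing from the shift common to the libraries. The median logit of a library differed between B and A by 0.362 in SLAM and 0.356 in TUC, and the median over genes of the fitted difference was 0.29. Genes of middle MAP had the widest differences and genes near 0 or 1 the narrowest.

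Among genes whose bounds lay apart in both chemistries, named by the size of the difference after the values were seen, Miip had a MAP of 0.778 in SLAM B and 0.387 in SLAM A, and of 0.579 in TUC B and 0.404 in TUC A. Hdac10, a deacetylase, stood at 0.512 in SLAM B and 0.292 in SLAM A, and at 0.540 in TUC B and 0.317 in TUC A. Pkn3, a protein kinase, stood at 0.589 in SLAM B and 0.325 in SLAM A, and at 0.560 in TUC B and 0.360 in TUC A. All were well above A in each chemistry. In the limma fit Hdac10 (adjusted p = 0.0349) and Pkn3 (0.0483) passed and Miip (0.0811) did not. In level, over the unconverted pairs, Hdac10 was higher (log2 0.27, adjusted p = 0.00329, edgeR), Miip lower (-0.33, adjusted p = 0.00481), and Pkn3 did not pass (0.01). On the other side Nsd1, a histone methyltransferase, stood at 0.670 in SLAM B and 0.811 in SLAM A, and at 0.649 in TUC B and 0.840 in TUC A. Txnip (0.918 and 0.970 in SLAM B and A, 0.921 and 0.985 in TUC B and A), the transcription factor Cebpb (0.914 and 0.939, 0.908 and 0.942) and Rhob, a small GTPase (0.954 and 0.976, 0.95 and 0.982), were lower in B. Of the 8 genes with the widest such differences, 3 were of lower MAP, namely Itpr2, a calcium channel of internal stores (0.316 in SLAM B and 0.417 in SLAM A), Manf, a secreted stress factor (0.364 and 0.417), and Meg3 (0.315 and 0.365), of which Manf passed in limma (adjusted p = 0.0336) and the other two did not. The genes that the naming rule took from the limma fit stood at 0.901 or more in each converted library. Most lay near 1, where the logit stretches small differences. Tnfaip3 stood at 0.967 in SLAM B and 1.00 in SLAM A, and at 0.981 in TUC B and 1.00 in TUC A. Hbegf stood at 1.00 in SLAM B and 0.989 in SLAM A, and at 1.00 in TUC B and 0.996 in TUC A. Fam199x had wider differences, at 0.973 in SLAM B and 0.901 in SLAM A, and at 0.987 in TUC B and 0.919 in TUC A. In none of the genes so taken did the deposited bounds lie apart in both chemistries.

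The lists with the lower levels in B did not have lower MAP. The median MAP over the ATF4 list was 0.401 in SLAM B and 0.334 in SLAM A, and 0.415 in TUC B and 0.356 in TUC A, with 17 of 30 members higher, 1 lower and 12 not passing in limma. The background for these counts is 32.5% of all genes higher and 1.45% lower in MAP. Calls depended on the read minimum, with 3381 of 9956 genes passing in this fit and 4033 of 7085 from 500 reads. A count above the background therefore need not mean a larger shift. The median fitted logit difference was 0.2858 in the ATF4 list, 0.4972 in G2 and mitosis and 0.3082 in matrix genes. Over all genes it was 0.2925, and whether a list differed from that was not tested. Over the G2 and mitosis list the median MAP was 0.741 in SLAM B and 0.607 in SLAM A. In TUC it was 0.725 in B and 0.614 in A, with 28 of 40 higher and 1 lower. Matrix genes, of low MAP (0.212 in SLAM B and 0.180 in SLAM A), had 29 of 34 higher and 0 lower. Immediate-early genes, with medians of 0.986 in SLAM B and 1.00 in SLAM A, had 2 higher and 9 lower of 26. These medians lie near 1, where the logit stretches small differences, as for Ier3 at 0.983 in SLAM B and 1.00 in SLAM A. With MAP in place of its logit, 35 of all 9956 genes were called lower, against 144 on the logit. Complement and Ly6 genes, of very low MAP (0.0368 in SLAM B and 0.0470 in SLAM A, 0.0446 in TUC B and 0.0573 in TUC A), had 0 of 7 passing either way. Ly6a, higher in level, stood at 0.0326 in SLAM B and 0.0390 in SLAM A, and at 0.0392 in TUC B and 0.0360 in TUC A, whereas Neat1 stood at 0.935 in SLAM B and 0.919 in SLAM A, and at 0.933 in TUC B and 0.908 in TUC A. Postn, lower in level, stood at 0.102 in SLAM B and 0.0541 in SLAM A, and at 0.0987 in TUC B and 0.0604 in TUC A. For a level taken from other libraries than MAP, genes were also sorted by the fit of the 3 unconverted pairs. Those higher in B by 1.5-fold or more there, 161 of the genes with MAP, had a median MAP of 0.747 in SLAM B and 0.688 in SLAM A, and the 47 lower by as much had 0.361 in SLAM B and 0.295 in SLAM A. The median gene difference in SLAM was 0.0219 among the higher genes, 0.0463 among the lower and 0.0499 among the rest, and MAP was higher in B in both chemistries in 65.8%, 66% and 78.6% of them.

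Level and MAP were joined by multiplying CPM by MAP, for new RNA, and by its remainder, for older RNA, with 1 CPM added before the ratio. These are values of 1 library a letter in each chemistry and have no test. Both parts are made from MAP, so the higher MAP in B over most genes by itself raises new RNA and lowers older RNA. Whether the split of a list went beyond that shift was not tested. Over 9956 genes the median log2 of B over A was 0.15 for new RNA in SLAM and in TUC, and -0.24 in SLAM and -0.22 in TUC for older RNA. The ATF4 list was lower in both parts, with medians of -0.24 and -0.21 for new RNA and -0.62 and -0.55 for older RNA, in SLAM and TUC. In the G2 and mitosis list the medians were 0.09 and -0.07 for new RNA and -0.68 and -0.65 for older RNA. For Atf4 new RNA stood at 428 CPM in SLAM B and 572 CPM in SLAM A, and older RNA at 41.2 CPM in SLAM B and 66.2 CPM in SLAM A. For Psat1 new RNA stood at 181 CPM in SLAM B and 239 CPM in SLAM A, and older RNA at 505 CPM in SLAM B and 946 CPM in SLAM A. For Neat1 new RNA stood at 632 CPM in SLAM B and 149 CPM in SLAM A, and older RNA at 44.2 CPM in SLAM B and 13.2 CPM in SLAM A. The log2 of B over A in new RNA of the SLAM libraries was -0.40 for Psat1 and 2.08 for Neat1.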

How the data were processed

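RNA-seq of 10 NIH-3T3 libraries gave 1 deposited table of 17053 genes. Expected counts per gene and library were deposited unscaled, per the file headers and values, and were rounded to whole numbers. MAP, a fraction, was deposited with 0.05 and 0.95 quantiles for 8 libraries, per the file headers, which do not name its quantity. The authors used cutadapt, Bowtie2 2.3.0 and STAR 2.7.10b, per the submitters' processing notes. Not given in the sources used here are the build, annotation, counting tool and strand setting. Of the values per library, 24 columns were not used. The symbols of 15548 genes (91.2%) were found in RefSeq's GRCm38.p6 names table, which was used for names and overlaps.

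Groups and letters came from the sample titles. The letters were taken to pair libraries because their B over A differences moved together: over 12218 genes, each of the 10 combinations of pairs had a Pearson correlation between 0.584 and 0.690. The common dispersion was 0.00196 with the group terms and 0.0209 without them. Leaving them out puts treatment and chemistry differences into the spread. These 2 values therefore cannot show whether the letters pair libraries. B over A was fitted with edgeR 4.0.16 (R 4.3.3; filterByExpr, TMM, 4 residual degrees of freedom), and MAP with limma 3.58.1 on the logit kept between 0.001 and 0.999, over genes with 100 reads or more. DESeq2 1.42.0, other scalings, filters, left-out pairs and, added after seeing the data, a lowess correction for length (span 0.3) were alternatives. Tested on simulated data, the B over A fit on 12118 genes recovered 74.8% of genes changed 1.2-fold and 84.8% of those changed 1.5-fold. The interaction fit on 12126 genes recovered 12.1% and 70%. The simulation changed few genes and held no group effects and no length trend. Its noise was independent between libraries, at the dispersion of the paired fit. These shares may therefore not hold for the data.

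Named genes were the 12 largest and 12 smallest log2 fold changes among genes passing an adjusted p of 0.05 with 10 CPM or more in the higher letter, one sign in all 5 pairs and no predicted name, up to 4 members each way of each of 29 lists, 8 reference genes, and up to 6 each way for the interactions and MAP. Not every gene that this rule took is named in the text. Members and lists were chosen with earlier results of these data known. Each letter holds 1 library of a group, so a value within a group has no replicate check, and depth was 27094222 counts or more per library.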

Additional observations from a re-analysis of the deposited data

Results flagged for a closer look

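Of 202 named genes, 17 (8.42%) had a pair whose log2 B over A stood apart from the other 4 pairs beyond the 95% critical value of Dixon's test for 5 values (0.71), where chance gives about 1 in 20. The same share over all 12218 genes tested was not worked out, so these counts show nothing particular to the named genes. In 11 of the 17 the SLAM pair was the one apart. Over the genes as a whole the SLAM pair also had the highest chi-square statistic (78.2) and the highest correlation with length (0.526). It was higher than the others in Col12a1 (1.15, against 0.66 to 0.79), Klf9 (0.88, against 0.51 to 0.60), Npc1 (0.55, against 0.27 to 0.34), Heatr1 (0.39, against 0.08 to 0.16) and Dnajc3 (0.21, against 0.12 to 0.15). It was lower in Rps2 (-0.74, against -0.48 to -0.43), Mvk (-0.52, against -0.28 to -0.20), Ier3 (-0.46, against -0.33 to -0.28), H2-D1 (-0.34, against -0.18 to -0.16) and Ccnd3 (-0.30, against -0.11 to -0.05). In Myl9 the SLAM pair was nearer 0 (0.27, against 0.49 to 0.54). The TUC pair was near 0 in Wwc1 (-0.00705, against -0.16 to -0.12) and Ddit4 (-0.0105, against -0.34 to -0.32). The uridine pair stood apart in P2rx3 (-0.89, against -1.14 to -1.09) and Mmp9 (-1.39, against -0.46 to -0.18), the untreated pair in Hist1h1e (0.19, against -1.29 to -0.97) and the 4sU pair in Csf1r (-0.86, against -0.37 to -0.23). Mmp9, Hist1h1e and Csf1r have levels near or below 2 CPM.

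B over A differed between kinds of pairs in 3 genes by the edgeR interaction test. Dhx9 differed by 0.62 between converted and unconverted pairs, and Neat1 by 0.58 and Leng8 by 0.55 between 4sU-treated and other pairs.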

How the results depend on the processing

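The count of genes called in B over A was 6290 with DESeq2, 7251 with library totals (4330 higher, 2921 lower) and 7374 with upper-quartile factors (3449 higher, 3925 lower), against 7368. Leaving out 1 pair at a time gave 6561 to 7195, and the fit with the length trend taken out 6496. With the group terms left out, which puts treatment and chemistry differences into the spread, 2069 passed. In the paired fit 669 passed with 1.5-fold or more. The interaction with conversion called 1 gene, 1 with DESeq2, 0 over genes with a mean of 100 counts or more, and 0 to 818 with 1 pair left out; the interaction with 4sU treatment called 2 and 0 to 3. MAP called 3381 genes (144 lower), 3213 from 50 reads, 4033 from 500 reads, 5894 on the MAP scale (35 lower) and 0 with each library centred. No pair was left out of the MAP fit, since 1 chemistry alone leaves no residual degree of freedom. The median MAP difference was 0.0833 in SLAM and 0.0817 in TUC from 500 reads, and 0.0839 in TUC from 50 reads. Over 221 genes, 2816 of 3052 values kept their direction and side of the threshold. Of the others, 218 lost the call (91 of them with the group terms left out), 10 gained one and 8 turned sign. All 8 turned with the length trend taken out: Tagln2 (0.006804), Sel1l (-0.06507), Edem1 (-0.05889), Sdf2l1 (0.05231), Hsph1 (-0.01416), Bax (0.0201), Heatr1 (-0.04068) and Utp20 (-0.1193). The alternative's own construction, a curve on length subtracted, sets those values. With 1 library per group and letter, precision within a group rests on the other pairs.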
